A study of Mus musculus with 8 samples.

Results

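The nuclear-encoded genes of the mitochondrial respiratory chain were compared between B-cell progenitors infected with a Klf2 retrovirus and the same cells infected with a BFP retrovirus. The genes were taken by symbol: every row beginning with Nduf, Uqcr, Cox4i, Cox5, Cox6, Cox7, Cox8 or Atp5, and Sdha, Sdhb, Sdhc, Sdhd, Cyc1 and Cycs. These symbols held 96 of the 38918 gene rows. The symbol rule itself uses no expression value, but it was chosen with earlier results of these data known. The rows were assigned to complexes I to V and to cytochrome c by the known place of each protein, with 43 in complex I, 4 in complex II, 9 in complex III, 1 for cytochrome c, 20 in complex IV and 19 in complex V. Ndufa4, named as a complex I gene, was placed with complex IV, where its protein is found.

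The cells were BMiFLT3 (15-3), a mouse pro-B line from a B-cell precursor acute lymphoblastic leukaemia. One group was labelled as overexpressing Klf2, a Krüppel-like factor that binds DNA through zinc fingers, and the other as overexpressing BFP, a blue fluorescent protein that served as the control. The column names of both groups carry BFP, so the Klf2 construct may hold it too. The stated aim was to find genes that Klf2 regulates. Poly(A) RNA was sequenced, and each group was deposited as 4 lanes. The lanes of a group differed by little more than sampling noise and were summed to 1 library, so nothing below is checked by replicates and p-values are not given.

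Oxidative phosphorylation couples the oxidation of NADH and succinate to ATP synthesis across the inner mitochondrial membrane. Complexes I and II pass electrons to ubiquinone, complex III passes them on to cytochrome c, complex IV reduces oxygen, and complex V (ATP synthase) uses the proton gradient to make ATP. Complexes I, III, IV and V combine core subunits with many accessory subunits, a few subunits are encoded in mitochondrial DNA, and some complex IV subunits have isoforms known from heart and skeletal muscle, lung or testis.

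Exon reads came to 30835450 for Klf2 (lanes of 7682298 to 7741626) and to 30133978 for BFP (lanes of 7506567 to 7588695). Levels are exon read counts scaled to library size (CPM) with TMM scaling, ratios are Klf2 over BFP, and each 95% exact interval covers counting error only. Klf2 RNA itself reached 113 CPM in the Klf2 library and 10.1 CPM in the BFP library, 11.1-fold higher (9.93 to 12.6). Its deposited RPKM was 50.1, 48.7, 51.0 and 50.7 in the Klf2 lanes, against 5.38, 5.0, 4.46 and 4.30 in the BFP lanes. Of the 11 B-cell progenitor markers found, 8 reached 1 CPM, and they summed to 3410 CPM in the Klf2 library and 3077 CPM in the BFP library. Rag1, Rag2 and Dntt, which pro-B cells commonly express, stayed under 1 CPM in both. Markers of T cells, erythroid cells, NK cells and stroma did not reach 1 CPM. Of 3 megakaryocyte markers Itga2b did, at 1.54 CPM in the Klf2 library and 2.22 CPM in the BFP library. Of 6 myeloid markers 2 did, and the list summed to 5.19 CPM in the Klf2 library and 8.26 CPM in the BFP library. In bulk RNA, a change in the share of cells and a change per cell cannot be told apart.

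Most respiratory chain genes were modestly higher in the Klf2 library. Of the 96 genes, 88 reached 1 CPM in at least 1 library and were compared. Their median difference was 0.35 on the log2(CPM + 1) scale, with quartiles of 0.15 and 0.51, while the median of all 10850 genes compared was -0.01. The ratio was above 1 for 74 of the 88 and below 1 for 14. The interval lay above 1 for 69 of the 88 genes, or 78.4%, against 37.1% of all genes compared. It lay below 1 for 9 of the 88, or 10.2%, against 37.3%. Counts of intervals for smaller sets and other lists below are to be read beside these shares of all genes. Large differences were few: 15 genes were at least 1.5-fold higher, or 17.0%, against 10.2% of all genes, and 3 were at least 1.5-fold lower, or 3.41%, against 13.9%. Scaled to library totals the median was 0.26 with 7 genes at least 1.5-fold higher, and with genes of at least 100 CPM centred on 1 it was 0.20 with 4 such genes. Ndufa5 and Ndufaf2 were at least 2-fold higher, 2.27% of the members against 2.45% of all genes. Cox6a2 and Cox7a1 were at least 2-fold lower, 2.27% against 5.67%.

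**Figure D1:**
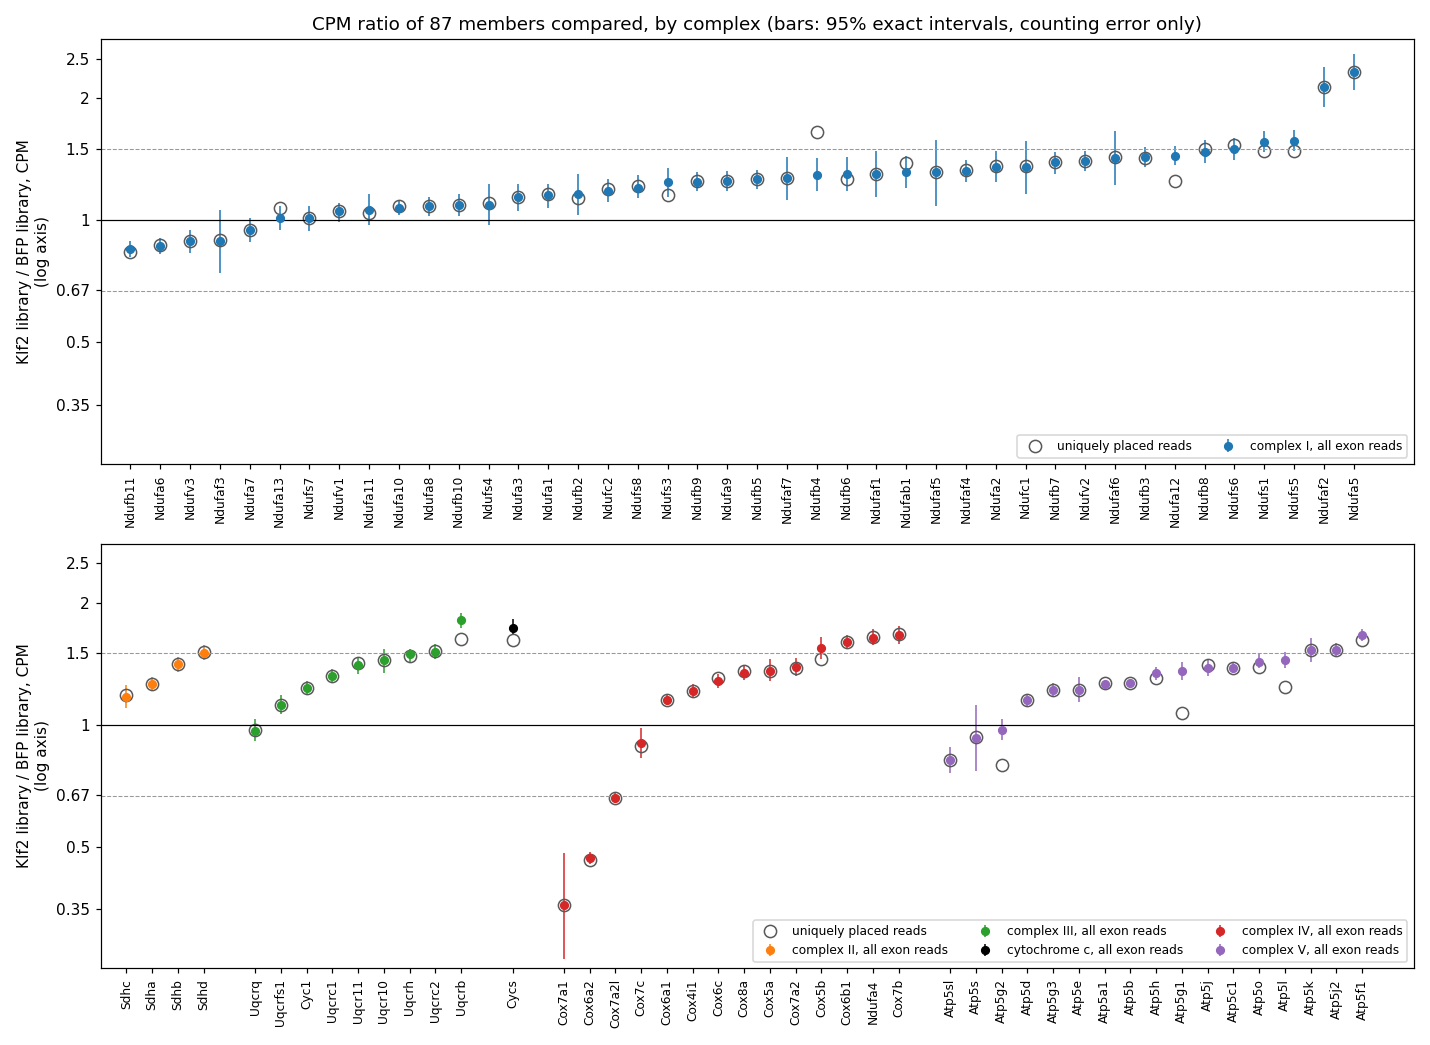
Ratio of CPM, Klf2 library over BFP library, on a log axis for 87 of the 88 genes compared, ordered within each complex. Filled points with bars are all exon reads with 95% exact intervals, open circles uniquely placed reads, and dashed lines the 1.5-fold limits. Most points lie between 1 and 1.5, while Cox7a1, Cox6a2 and Cox7a2l lie under the lower line.

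Well-expressed genes in general also lay above BFP, though less far. Among the 2407 genes with a mean of at least 100 CPM the median difference was 0.16, the interval lay above 1 for 60.4% and below 1 for 29.3%, and 13.5% were at least 1.5-fold higher against 4.90% lower by that much. At 2-fold these shares were 1.37% for higher and 1.12% for lower genes. Among the 196 such genes with exons shorter than 1500 bases in all, the median was 0.18 on all reads and 0.07 on junction reads. Respiratory chain genes spanned a wide range of levels, from Cox7a1 to Atp5b, and, as the plot of difference against level shows, they lay mostly above 0, although of the 4 members with the fewest reads Cox7a1, Atp5s and Ndufaf3 lay below 0 and Ndufaf5 above it.

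**Figure D2:**
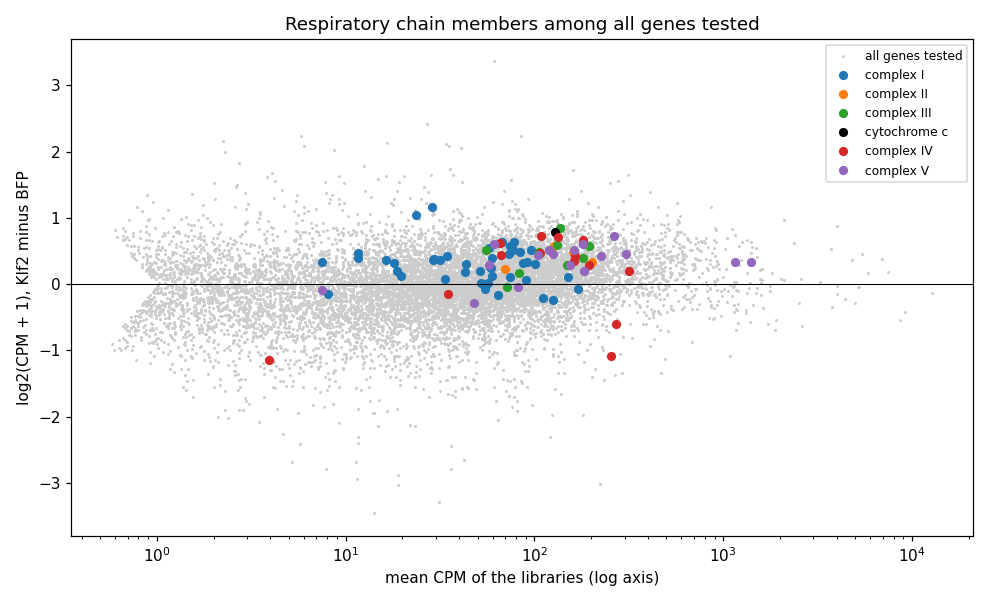
Difference in log2(CPM + 1), Klf2 minus BFP, against the mean CPM of the libraries on a log axis, for all 10850 genes compared (grey) and the 88 respiratory chain genes (coloured by complex). The coloured points lie mostly above 0, with median 0.35, and 3 complex IV genes lie at -0.60 and below.

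Sequence bears on these results where isoforms are told apart. Cox6a2 and Cox6a1 encode the muscle-type and the widely expressed isoform of the same complex IV subunit, and Cox6a2 was among the genes furthest below BFP. Their coding sequences across the junction of exons 2 and 3 are shown to let a reader judge how separable reads of the 2 genes are. They are from GENCODE M21 (GRCm38), 5′ to 3′ on the coding strand, with exon 2 in lower case and exon 3 in capitals. The intron removed lies at chr7:128205813-128205899 on the minus strand for Cox6a2 and at chr5:115345927-115348564 on the minus strand for Cox6a1.
Cox6a2: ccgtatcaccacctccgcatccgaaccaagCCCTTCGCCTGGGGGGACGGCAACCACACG
Cox6a1: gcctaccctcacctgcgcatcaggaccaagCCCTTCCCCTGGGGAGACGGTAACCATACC
The 60 bases were equal at 47 positions at this junction, and at 23 of 60 at the junction of exons 1 and 2.

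Summed over each complex, complexes I, II, III and V and cytochrome c were higher in the Klf2 library, and complex IV was close to 1. Complex I summed to 2739 CPM in the Klf2 library and 2321 CPM in the BFP library, a ratio of 1.18 (1.17 to 1.19). Complex II summed to 640 CPM in the Klf2 library and 477 CPM in the BFP library, a ratio of 1.34 (1.31 to 1.37). Complex III summed to 1280 CPM in the Klf2 library and 931 CPM in the BFP library, a ratio of 1.38 (1.35 to 1.40). Complex V, the most abundant in reads, summed to 5240 CPM in the Klf2 library and 4020 CPM in the BFP library, a ratio of 1.30 (1.29 to 1.31). Complex IV summed to 2137 CPM in the Klf2 library and 1985 CPM in the BFP library, a ratio of 1.08 (1.06 to 1.09). All members together took 1.18% of exon reads in the Klf2 library and 1.01% in the BFP library.

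Scaled to the total reads of each lane alone, the lanes of the libraries did not overlap for complexes I, II, III, V and cytochrome c, but did for complex IV. Complex V ranged from 5056 to 5116 CPM over the Klf2 lanes and from 4136 to 4176 CPM over the BFP lanes. Complex IV ranged from 2040 to 2111 CPM over the Klf2 lanes and from 2041 to 2064 CPM over the BFP lanes. The complex IV sum changed sides with the scaling: its ratio was 1.01 on library totals and 0.963 when genes of at least 100 CPM were centred on 1. Without Cox6a2 the complex IV ratio was 1.20 (1.19 to 1.22), and without Cox6a2, Cox7a1 and Cox7a2l it was 1.34 (1.33 to 1.36). These omissions were chosen after the values were seen.

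The kind of read moved the sum of complex IV more than those of the other complexes. On uniquely placed reads the ratio was 1.16 for complex I, 1.35 for complex II, 1.33 for complex III, 1.20 for complex IV and 1.29 for complex V. On junction reads it was 1.19, 1.33, 1.41, 1.12 and 1.29 in the same order. Cox6a2 held 4864 exon reads in the Klf2 library and 10782 in the BFP library, of which 1498 and 3380 were uniquely placed. Without it the complex IV ratio was 1.20 on all reads, 1.26 on uniquely placed reads and 1.28 on junction reads. Reads within the gene bounds but outside exons, pooled over all members, did not show the shift. Their ratio was 0.989 (0.970 to 1.01), against 1.06 (1.05 to 1.06) over the whole dataset. Among complexes I to V it ran from 0.898 (0.869 to 0.927) for complex V to 1.08 (1.05 to 1.12) for complex I. The Atp5o row, which overlaps those of Itsn1, Cryzl1 and Donson, held 795 in the Klf2 library and 1420 in the BFP library. Which gene such reads belong to was not tested.

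**Figure D3:**
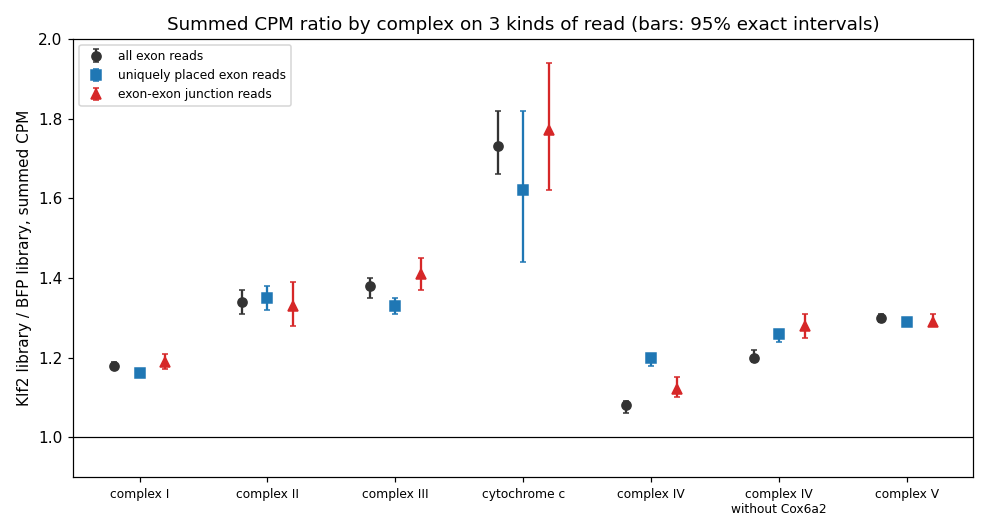
Ratio of summed CPM, Klf2 library over BFP library, for each complex on all exon reads (circles), uniquely placed reads (squares) and junction reads (triangles), with 95% exact intervals. Complexes II, III and V lie between 1.29 and 1.41 on every kind of read, and complex IV moves between 1.08 and 1.20, against 1.20 to 1.28 without Cox6a2.

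In complex I, which oxidises NADH, 32 of 43 genes had an interval above 1 and 4 an interval below 1, with a median difference of 0.32. The gene furthest above BFP was Ndufa5, an accessory subunit of the matrix arm, at 40.2 CPM in the Klf2 library and 17.4 CPM in the BFP library, a ratio of 2.32 (2.09 to 2.57). Its RPKM was 34.9, 30.7, 29.8 and 32.9 in the Klf2 lanes, against 16.1, 15.9, 14.2 and 12.7 in the BFP lanes. Every Klf2 lane was thus well above every BFP lane, and all reads of the gene were placed uniquely. Ndufaf2, an assembly factor that is not part of the finished complex, had a ratio of 2.13 (1.90 to 2.38) on all reads and 1.65 (1.35 to 2.02) on junction reads. Its RPKM was 37.9, 35.4, 40.4 and 40.9 in the Klf2 lanes, against 16.3, 16.8, 22.4 and 21.7 in the BFP lanes. These lanes did not overlap either, although the BFP lanes varied more than for Ndufa5.

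The 7 nuclear core subunits of complex I, which carry the flavin and the iron-sulfur clusters, did not move alike. Ndufs1, the largest of them, had a ratio of 1.56 (1.47 to 1.66) on all reads and 1.48 on uniquely placed reads, and so lay on either side of 1.5. Its RPKM was 18.9, 18, 17.8 and 18.6 in the Klf2 lanes, against 12.8, 12.7, 12.9 and 11.6 in the BFP lanes, without overlap. Ndufv2, also of the NADH-binding module, had a ratio of 1.40 (1.32 to 1.48). Ndufv1, of the same module, at 1.05 (0.991 to 1.1), and Ndufs7, of the quinone-binding module, at 1.01 (0.938 to 1.08), were not distinguishable from 1 at this depth. Ndufs3 and Ndufs8, of the quinone-binding module, were at 1.24 and 1.20.

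Among the 29 accessory subunits of complex I the interval lay above 1 for 22 and below 1 for 3. Ndufs5, a subunit facing the intermembrane space, had a ratio of 1.57 (1.48 to 1.67) counting every read, and 1.48 counting uniquely placed reads, which were 19.7%. Its RPKM was 94.5, 94.5, 87.9 and 88.3 in the Klf2 lanes, against 63.3, 61.9, 62.7 and 59.1 in the BFP lanes. The lanes were apart by a wide margin. Ndufs6, an accessory subunit of the NADH-binding module, was at 1.5 (1.41 to 1.59), just under the limit, and at 1.53 on uniquely placed reads. Ndufb4, of the membrane arm, was at 1.29 on all reads and 1.65 (1.14 to 2.42) on uniquely placed reads, which were only 6.42% of its reads. Lower in the Klf2 library were Ndufb11, a membrane-arm subunit, at 0.848 (0.810 to 0.887), Ndufa6, of the matrix arm, at 0.862 (0.822 to 0.905), and Ndufv3, of the NADH-binding module, at 0.885 (0.831 to 0.943). Ndufb11 had an RPKM of 105, 100, 107 and 103 in the Klf2 lanes, against 134, 128, 130 and 128 in the BFP lanes, so that the lower group was the Klf2 one in every lane. Its row overlaps by position that of Rbm10, whose ratio was 1.31, and strand in counting is not given in the sources used here.

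The 7 assembly factors of complex I named Ndufaf summed to 168 CPM in the Klf2 library and 121 CPM in the BFP library, a ratio of 1.39 (1.33 to 1.45). Apart from Ndufaf2 they lay between 1.27 for Ndufaf7 and 1.42 for Ndufaf6, except Ndufaf3 at 0.888 (0.741 to 1.06). Assembly factors of complexes I to V outside the symbol rule had a median difference of 0.06 on all reads, less than the 0.09 by which TMM moves the scale against library totals, and of 0.25 on junction reads. On all reads they had an interval above 1 for 16 of 37, or 43.2%, against 37.1% of all genes compared. It lay below 1 for 5, or 13.5%, against 37.3%. Among these factors, Ecsit, of complex I, was at 1.57, on reads of which 21.1% were unique. Pet100, which assists complex IV, was at 1.52. Furthest in the other direction were Sco2, a copper chaperone of complex IV with no uniquely placed read, at 0.383 (0.252 to 0.570), and Coa4, another complex IV factor, at 0.818.

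In complex II (succinate dehydrogenase), which also serves the tricarboxylic acid cycle, all 4 subunits had an interval above 1. Sdhd, a membrane anchor, had a ratio of 1.5 (1.44 to 1.57), with an RPKM of 98.4, 95.7, 102 and 94.5 in the Klf2 lanes, against 70.8, 67.9, 68.0 and 69.2 in the BFP lanes. Sdhc, the other anchor, was the least changed at 1.17 (1.1 to 1.25), with an RPKM of 17.6, 19.2, 20.6 and 18.6 in the Klf2 lanes, against 18.2, 15.4, 18 and 17.2 in the BFP lanes. The Sdhd lanes were apart and the Sdhc lanes overlapped. The catalytic subunits Sdha (flavoprotein) and Sdhb (iron-sulfur protein) lay between the anchors at 1.26 and 1.41.

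Complex III, which passes electrons from ubiquinol to cytochrome c, had 8 of 9 genes with an interval above 1. Uqcrb, a small accessory subunit, was the furthest above BFP at 1.81 (1.73 to 1.89), and at 1.63 (1.49 to 1.79) counting uniquely placed reads, which were 25%. Its RPKM was 172, 163, 167 and 158 in the Klf2 lanes, against 94.7, 102, 96.0 and 95 in the BFP lanes. Uqcrc2, a large matrix-side protein related to processing peptidases, was at 1.51 (1.45 to 1.58), with an RPKM of 52.7, 51.3, 51.4 and 53.2 in the Klf2 lanes, against 37.4, 37.9, 34.5 and 36.8 in the BFP lanes. Neither gene's lanes overlapped between the libraries. The catalytic subunits differed less: Cyc1 (cytochrome c1) was at 1.23 and Uqcrfs1 (the Rieske iron-sulfur protein) at 1.12. Uqcrq, a small subunit, was the only complex III gene with a ratio below 1, at 0.966 (0.910 to 1.03). Its RPKM was 31.6, 29.1, 32.5 and 32.6 in the Klf2 lanes, against 33.9, 33.2, 35.3 and 35.9 in the BFP lanes. These lanes did not overlap, but RPKM follows library totals, on which every ratio runs lower than with TMM.

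Cycs, the somatic gene of cytochrome c, which shuttles electrons between complexes III and IV and can trigger caspases when released to the cytosol, was at 163 CPM in the Klf2 library and 94.1 CPM in the BFP library. The ratio was 1.73 (1.66 to 1.82) on all reads, 1.62 (1.44 to 1.82) on uniquely placed reads and 1.77 (1.62 to 1.94) on junction reads. Its RPKM was 40.4, 41.0, 39.3 and 37.1 in the Klf2 lanes, against 24.7, 23.5, 25.1 and 23.6 in the BFP lanes. The lanes were far apart, but only 15.4% of its reads were unique, and 9 annotated pseudogene loci of the mouse genome resemble its transcript at 90% identity or more over at least 200 bases.

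Complex IV (cytochrome c oxidase) held genes far above and far below BFP. Of the 11 generally expressed subunits compared, 10 had an interval above 1 and 1 below, with a median difference of 0.44. The 3 isoform or paralogue genes compared, Cox6a2, Cox7a1 and Cox7a2l, all had an interval below 1. The highest ratios were those of Cox7b at 1.66 (1.58 to 1.75), Ndufa4 at 1.64 (1.57 to 1.72), Cox6b1, on the intermembrane space side, at 1.60 (1.54 to 1.66), and Cox5b, on the matrix side, at 1.55 (1.45 to 1.65). The Cox5b ratio on its 41.0% uniquely placed reads was 1.45.

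Cox7b had an RPKM of 91.6, 92.6, 91.3 and 89.4 in the Klf2 lanes, against 56.8, 57.8, 59.5 and 59.0 in the BFP lanes. Ndufa4 had 265, 280, 266 and 294 RPKM in the Klf2 lanes, against 179, 193, 172 and 172 in the BFP lanes. Both sets of lanes were clearly separated, and nearly all reads of both genes were unique. Cox6b1 had 348, 360, 369 and 366 RPKM in the Klf2 lanes, against 241, 233, 246 and 241 in the BFP lanes. Cox5b had 109, 114, 130 and 112 RPKM in the Klf2 lanes, against 77.4, 77.2, 89.7 and 74.4 in the BFP lanes. Lane 3 was the highest lane of both libraries for Cox5b, and the libraries stayed apart. Cox7c was the 1 general subunit lower in the Klf2 library, at 0.900 (0.826 to 0.981), on reads of which 28.3% were unique.

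Cox6a2, the isoform known from heart and skeletal muscle, was at 163 CPM in the Klf2 library and 347 CPM in the BFP library, a ratio of 0.469 (0.454 to 0.486). Its deposited RPKM was 211, 195, 208 and 201 in the Klf2 lanes, against 443, 466, 469 and 466 in the BFP lanes. Every Klf2 lane lay under every BFP lane, by a margin far beyond the spread of the lanes. Per length it was the highest of the 88 genes in the BFP library, at a mean of 461 RPKM, and eighth in order in the Klf2 library, at 203 RPKM. Its general counterpart Cox6a1 had 393, 393, 399 and 406 RPKM in the Klf2 lanes, against 370, 359, 371 and 369 in the BFP lanes, and a CPM ratio of 1.15 (1.12 to 1.18). Cox6a2 took 33.9% of the Cox6a reads per kilobase in the Klf2 library and 55.7% in the BFP library. By lane this share lay between 33.1% and 34.9% in the Klf2 library and between 54.5% and 56.5% in the BFP library. On junction reads, such as those across the sequences above, the share was 47.8% in the Klf2 library and 70.0% in the BFP library, and on uniquely placed reads per kilobase it was 13.6% in the Klf2 library and 28.2% in the BFP library. The share was lower in the Klf2 library on each kind of read. In the BFP library Cox6a2 was the larger part on all reads and on junction reads, but not on uniquely placed reads. The uniquely placed reads of Cox6a2 were all junction reads, while 100% of Cox6a1 reads were unique. The share on uniquely placed reads thus does not compare like with like.

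The Cox6a2 row (chr7:128205436-128206366, mm10) overlaps by position that of Itgad, an integrin gene with 211 reads in the Klf2 library and 440 in the BFP library, a ratio of 0.499. Only 31.2% of the Cox6a2 exon reads were counted as uniquely placed, 1498 in the Klf2 library and 3380 in the BFP library, and every one of these crossed an exon junction. The same held for Cox4i1 and Ndufa13, and no annotated pseudogene locus resembled the Cox6a2 transcript. The ratio on the uniquely placed reads was 0.462 (0.435 to 0.492). How much of the non-junction count belongs to either gene was not tested.

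Cox7a1, the muscle isoform of another small subunit, was scarce, with 62 reads in the Klf2 library and 180 in the BFP library, a ratio of 0.358 (0.264 to 0.481). Its RPKM was 3.02, 4.24, 6.07 and 5.42 in the Klf2 lanes, against 16.1, 14.2, 13 and 12.3 in the BFP lanes. Cox7a2l, a paralogue known to join complexes III and IV into supercomplexes, was at 215 CPM in the Klf2 library and 326 CPM in the BFP library, a ratio of 0.660 (0.640 to 0.681). Its RPKM was 151, 156, 159 and 151 in the Klf2 lanes, against 254, 249, 248 and 244 in the BFP lanes. Neither gene's lanes overlapped. The general isoform Cox7a2 was higher in the Klf2 library at 1.39 (1.32 to 1.46), with an RPKM of 130, 136, 137 and 139 in the Klf2 lanes, against 108, 104, 105 and 97.2 in the BFP lanes. Of the Cox7a reads per kilobase, Cox7a2 took 46.0% in the Klf2 library and 28.3% in the BFP library, and Cox7a2l 52.4% in the Klf2 library and 67.9% in the BFP library. On uniquely placed reads Cox7a2 took 58.4% in the Klf2 library and 39.1% in the BFP library, and Cox7a2l 39.6% in the Klf2 library and 55.6% in the BFP library. On junction reads Cox7a2 took 73.8% in the Klf2 library and 58.0% in the BFP library, and Cox7a2l 24.4% in the Klf2 library and 36.5% in the BFP library. The share of Cox7a2 was thus higher in the Klf2 library on each kind of read, but which gene had the larger share depended on the reads counted.

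**Figure D4:**
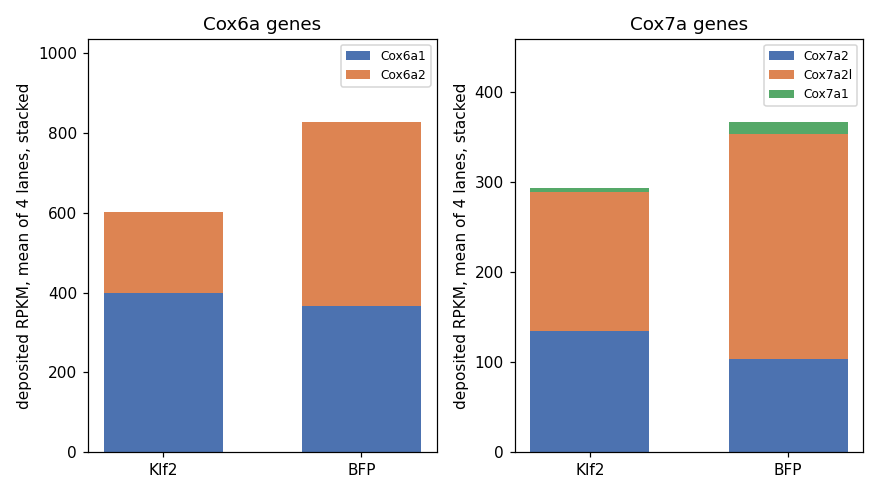
Deposited RPKM, mean of 4 lanes, stacked for the Cox6a genes (left panel) and the Cox7a genes (right panel), with the Klf2 library left of the BFP library. Cox6a1 stands at 398 RPKM in the Klf2 library and 367 in the BFP library, while Cox6a2 stands at 203 and Cox7a2l at 154 RPKM in the Klf2 library, against 461 and 249 RPKM in the BFP library.

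The remaining isoform genes were hardly read. Cox4i2, the lung-type partner of Cox4i1, had 5 reads in the Klf2 library and 6 in the BFP library. Ndufa4l2, the paralogue of Ndufa4, had 14 in the Klf2 library and 12 in the BFP library. Cox8b, a muscle isoform, had 1 in each. Cox6b2, a testis isoform, had 0 in the Klf2 library and 4 in the BFP library. Cox7b2 and Cox8c had 0 in both, which allows up to 0.0973 CPM in the Klf2 library and 0.0996 CPM in the BFP library before TMM scaling. Together with Atp5l-ps1 and Atp5l2, annotated copies of Atp5l, these made up the 8 genes not compared.

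**Figure D5:**
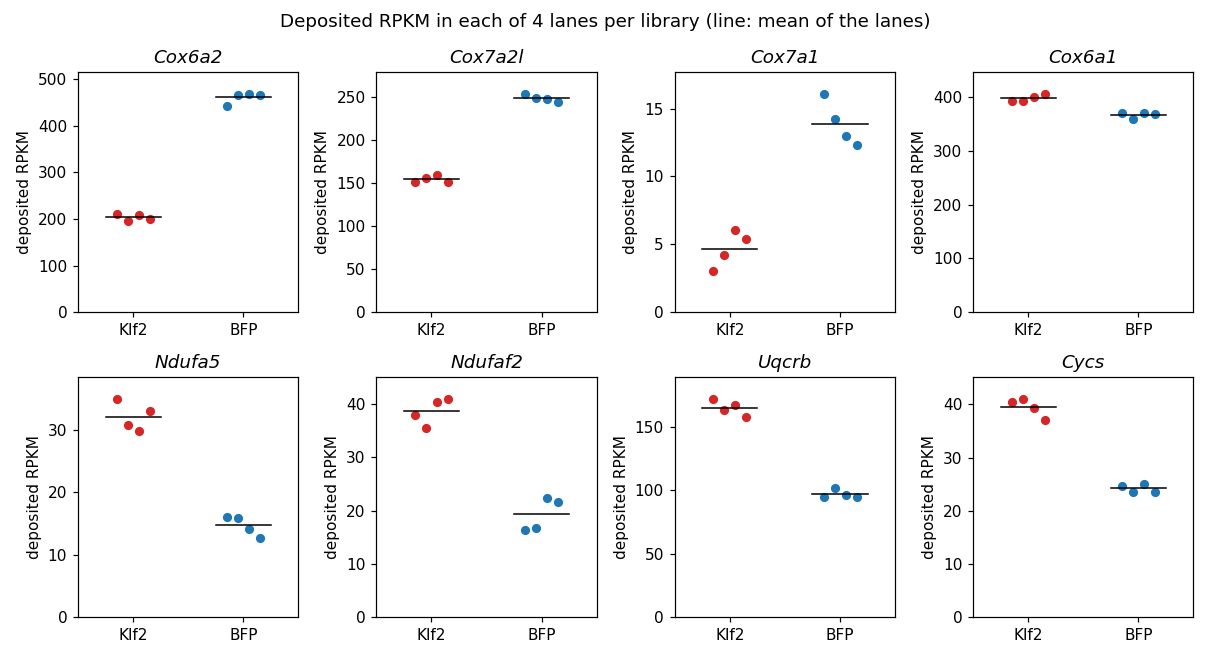
Deposited RPKM of 8 genes in each of the 4 lanes per library, Klf2 left of BFP, with the mean of the lanes as a line and each vertical axis starting at 0. For Cox6a2, Cox7a2l and Cox7a1 every Klf2 lane lies under every BFP lane, and for Cox6a1, Ndufa5, Ndufaf2, Uqcrb and Cycs above.

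In complex V the subunits of the stalk and membrane part were further above BFP than those of the catalytic head and rotor ring. All 7 peripheral stalk and membrane subunits had an interval above 1, with a median difference of 0.52. Of the 8 genes of the F1 head and the c-ring 7 did, with a median of 0.31. Atp5f1 (subunit b of the stalk) had the highest ratio, 1.66 (1.61 to 1.72) on all reads and 1.47 (1.38 to 1.56) on junction reads. Its RPKM was 65.4, 66.7, 65.4 and 65.3 in the Klf2 lanes, against 41.3, 43.4, 42.0 and 41.4 in the BFP lanes. Its lanes were tightly grouped in both libraries, but its row overlaps that of Wdr77, which had a ratio of 1.40.

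Atp5j2, a membrane subunit, was at 1.53 (1.47 to 1.59), with an RPKM of 152, 148, 144 and 141 in the Klf2 lanes, against 101, 106, 103 and 97.9 in the BFP lanes. Atp5k, another membrane subunit, was at 1.53 (1.43 to 1.64), with an RPKM of 94.8, 97.2, 102 and 103 in the Klf2 lanes, against 70.6, 65.3, 70.5 and 69.3 in the BFP lanes. No lane of either gene overlapped between the libraries. The stalk subunits Atp5h, Atp5j and Atp5o lay between 1.34 and 1.43. Catalytic Atp5b and its partner Atp5a1, with the most reads of all members, were at 1.27 (1.25 to 1.29) and 1.26 (1.24 to 1.28), and Atp5b stood at 1562 CPM in the Klf2 library and 1231 CPM in the BFP library. The 3 genes that encode the same mature c-ring protein differed: Atp5g1 was at 1.36, Atp5g3 at 1.22, and Atp5g2, of whose reads 0.742% were unique, at 0.971 (0.918 to 1.03). Atp5g1 was at 1.07 (0.945 to 1.22) on its 15.0% uniquely placed reads, so the split among these genes is uncertain.

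Of the symbols that share the Atp5 prefix without being subunits of the enzyme, Atp5sl, known in human cells as an assembly factor for the complex I membrane arm, was lower at 0.816 (0.758 to 0.878). Its RPKM was 12.7, 12.1, 11.3 and 12.6 in the Klf2 lanes, against 15.2, 16.8, 16.8 and 14.7 in the BFP lanes, without overlap. Atp5s, coupling factor B, was at 0.929 (0.769 to 1.12). Among genes outside the symbol rule that belong to the enzyme, Usmg5, a small membrane subunit, was at 1.83 on reads of which 35.4% were unique, and Atpif1, its inhibitor, at 1.43.

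Across the complexes, accessory subunits, with isoform genes left out, were on the whole further above BFP than core subunits. The 54 accessory subunits had a median difference of 0.41, and 11 were at least 1.5-fold higher, or 20.4%, against 10.2% of all genes. The 21 core subunits had a median of 0.29, and the 2 that were at least 1.5-fold higher made up 9.52%, close to the share of all genes. In complex I the medians were 0.31 for accessory and 0.26 for core genes, and in complex III 0.52 for accessory and 0.22 for core genes. Uqcrc1 and Uqcrc2, the large matrix-side proteins of complex III, stood among the accessory genes here. With both counted as core, a choice made after seeing the data, the complex III medians were 0.52 for accessory and 0.34 for core genes, and those over all complexes 0.41 and 0.30. Complex IV has its core encoded in mitochondrial DNA, so it adds no core genes. Its isoform genes Cox6a2, Cox7a1 and Cox7a2l, at 0.469, 0.358 and 0.66, stood in neither class. The accessory median and count thus leave out these genes, the furthest below BFP of all members compared. These medians have no test, since genes of 1 pair of libraries are not replicates.

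The pattern held on uniquely placed reads and on junction reads. Junction reads were not limited to uniquely placed ones, so copies may share them. Atp5g2 had 990 junction reads but 16 uniquely placed exon reads in the Klf2 library. Each of the 88 ratios lay on the same side of 1 on uniquely placed reads, and 84 did on junction reads, with Atp5s, Ndufa10, Ndufs7 and Ndufv1 on the other side. The median difference was 0.34 on uniquely placed reads and 0.33 on junction reads. By reads, 59 of the 88 genes had at least 90% unique reads, with a median difference of 0.32, and 15 had under 50%. Of 87 genes found in GENCODE, 35 had at least 1 annotated pseudogene locus of like sequence, up to 15 for Atp5l. Among the 15 genes under 50% unique, 11 had such a locus, and among 58 of those over 90%, 14 had one. For 66 of the 88 genes the deposited RPKM of the lanes did not overlap between libraries. The same share over all genes is not given here, so this count does not set the members apart from other genes.

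Subunits encoded in mitochondrial DNA had no common direction. The 13 genes had a median difference of -0.03, with an interval above 1 for 6 and below 1 for 7, and they made up 6.12% of exon reads in the Klf2 library and 6.18% in the BFP library. Their extremes were mt-Nd1 and mt-Nd2, complex I subunits, at 1.37 and 1.30, and mt-Co3, of complex IV, at 0.901, followed by mt-Co1 (complex IV) and mt-Nd4l (complex I), both at 0.911. No read of mt-Nd4l was uniquely placed. The summed ratio of the 13 genes was 1.05 on all reads and 1.06 on uniquely placed reads.

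Nuclear genes of some other mitochondrial functions had medians near that of the respiratory chain. Tricarboxylic acid cycle genes with pyruvate dehydrogenase had a median of 0.39, with an interval above 1 for 16 of 19. Fh1 (fumarase) and Idh3a (isocitrate dehydrogenase) were highest at 1.8 and 1.61, while Pcx (pyruvate carboxylase) was at 0.80 and Idh3g, a regulatory subunit of isocitrate dehydrogenase, at 0.981. Mitochondrial ribosomal proteins had a median of 0.36, with an interval above 1 for 62 of 76, or 81.6%, against 37.1% of all genes compared. Cytosolic ribosomal proteins, also short and highly expressed, ran the other way at -0.17, with an interval above 1 for 16 of 81 and below 1 for 59, and their median was -0.07 on uniquely placed reads and -0.23 on junction reads. The carriers of ADP, ATP and phosphate were at 0.23, from Slc25a3 (phosphate) at 1.02 to Slc25a4 (ADP and ATP) at 1.21.

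Genes of ubiquinone synthesis and of the other enzymes that reduce it were mixed, with a median of 0.22. The interval lay above 1 for 9 of 17, or 52.9%, against 37.1% of all genes compared. It lay below 1 for 3, or 17.6%, against 37.3%. Coq7, a hydroxylase of ubiquinone synthesis, was highest at 2.12 (1.94 to 2.30), followed by Pdss1, which makes the polyprenyl tail, at 1.82. Adck3, a kinase-like protein of the pathway, was lowest at 0.344 (0.279 to 0.423), followed by Coq10a, a ubiquinone-binding protein, at 0.576. Regulators of respiratory gene transcription had a median of 0.27, with an interval above 1 for 10 of 14, or 71.4%, against 37.1% of all genes compared. Gabpb2, of the GABP family, and Tfb2m, a mitochondrial transcription factor, were highest at 1.39 and 1.38. Nrf1, an activator of many respiratory chain promoters, was lower at 0.844 (0.801 to 0.888), and Polrmt, the mitochondrial RNA polymerase, at 0.880. Ppargc1a, a coactivator of mitochondrial biogenesis, had 1 read in the Klf2 library and 0 in the BFP library.

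Upstream sequence was described for the 71 compared genes with an entry among the RefSeq promoters (GRCm38.p6), over 250 bases before the outermost start and on both strands. The NRF1 motif (GCGCA, any base, then GCGC) was present in 18.3% of the members and 3.87% of all 27025 promoters, and the ETS motif CCGGAAG in 16.9% and 7.07%. The KLF-type motif CCACCC was present in 22.5% of the members and 27.6% of all promoters, its longer form CCACACCC in 5.63% and 3.22%, and the GC box GGGCGG in 35.2% and 33.0%. The YY1 motif AAGATGGCG was in 0 members and 0.592% of all promoters. Bases after the start were not searched, so this 0 does not cover matches there. Mean GC content was 56.7% for the members and 53.0% for all promoters. The members all reached 1 CPM in at least 1 library, while the 27025 promoters were not limited by expression. These shares and means thus do not compare like sets of genes. The 16 members with CCACCC had a median log2 ratio of 0.43, and the 55 without it 0.34. These medians were 0.54 with and 0.38 without the longer form, which only 4 members held, 0.37 with and 0.41 without the GC box, 0.45 with and 0.34 without the ETS motif, and 0.40 with and 0.38 without the NRF1 motif. They differed little and not all in the same direction. A match is only a run of letters, and binding was not measured.

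The windows of 17 members hold no annotated exon of any gene. How many of these hold an NRF1 match is not given here. The pair below shows Ndufaf4 (ratio 1.32), which holds such a match, and, of the 17, the gene furthest below BFP, Cox7a2l (ratio 0.660). They are read 5′ to 3′ on the strand of the gene from chr4:24897833-24898082 (plus strand) and chr17:83514334-83514583 (minus strand). Capitals mark motif matches: in Ndufaf4 the NRF1 motif, then a CCACCC match on the opposite strand that shares bases with the first of 2 overlapping GC boxes, and in Cox7a2l a GC box.
Ndufaf4: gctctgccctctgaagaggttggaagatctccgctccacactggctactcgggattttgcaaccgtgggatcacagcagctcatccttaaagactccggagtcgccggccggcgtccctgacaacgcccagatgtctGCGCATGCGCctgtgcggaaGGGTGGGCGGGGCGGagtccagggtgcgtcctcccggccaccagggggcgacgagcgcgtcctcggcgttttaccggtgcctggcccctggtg
Cox7a2l: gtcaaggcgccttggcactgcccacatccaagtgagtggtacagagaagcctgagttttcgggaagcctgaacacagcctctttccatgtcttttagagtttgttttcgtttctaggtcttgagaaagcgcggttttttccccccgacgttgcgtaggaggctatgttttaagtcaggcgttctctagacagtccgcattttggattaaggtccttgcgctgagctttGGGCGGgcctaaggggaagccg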

How the data were processed

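Poly(A) RNA was sequenced on an Illumina HiSeq system, per the labels' protocols, which name 2 library kits without saying which library used which, so kit and construct cannot be told apart. Per the submitters' processing notes, CASAVA 1.8.2 was used and the build was mm10. The aligner, the annotation and the use of strand: not given in the sources used here.

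The authors deposited a gene table. Per the file headers it holds counts for each lane (all exon reads, uniquely placed exon reads, junction reads and all gene reads), RPKM, and exon length, a score used to scale shares per kilobase, to recompute RPKM and to pick short genes. The deposited RPKM was recomputed from the counts, with a largest difference of 0.0258, and scales with library totals, so RPKM ratios run 0.09 (log2) under the TMM ones. No RPKM was tested.

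Lane titles differ only in a lane name. Chi-square per degree of freedom between lanes was 1.27 (Klf2) and 1.29 (BFP) on all reads, 1.03 in both on uniquely placed reads and 1.13 (Klf2) and 1.24 (BFP) on the members, so lanes were summed and counted as 1 sample. Of exon reads, 83.3% (Klf2) and 83.2% (BFP) were uniquely placed and 22.4% (Klf2) and 21.9% (BFP) crossed junctions.

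CPM used TMM factors of 0.969 (Klf2) and 1.03 (BFP) from edgeR 4.0.16 in R 4.3.3; DESeq2 1.42.0 size factors were an alternative, and neither tool was used for a test. Genes needed 1 CPM in either library. Differences are log2(CPM + 1); ratios carry exact (Clopper-Pearson) 95% intervals conditional on the summed reads, without molecular identifiers. The 1.5-fold and 2-fold counts also needed an interval excluding 1. The ratios, intervals and fold counts were tried on simulated counts. That trial did not cover TMM scaling, the kinds of read or variation between libraries. Pseudogene loci came from blastn 2.17.0 against GENCODE M21.

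Any member may be named, but 1 is not reported singly here. Lane values are given for members past 1.5-fold and the furthest in each direction per complex, members that cross 1 or 1.5 on uniquely placed reads are named with both values, and other lists give at most 2 genes in each direction. Members and lists were chosen with earlier results of these data known. Values of Cox6a1, Cox7a2 and the subunits described beside them were chosen after their values were seen.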

Additional observations from a re-analysis of the deposited data

How the results depend on the processing

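No paired analysis was possible because each group is 1 library, its replicate numbers are lanes, and no result comes from a test. Leaving out each lane in turn gave a median of 0.33 to 0.35, 13 to 16 members at least 1.5-fold higher, 2 to 3 at least 1.5-fold lower, and 67 to 70 with an interval above 1. Sums ranged from 1.17 to 1.19 (complex I), 1.34 to 1.35 (II), 1.36 to 1.38 (III), 1.07 to 1.08 (IV) and 1.30 to 1.30 (V).

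Scaling moved the results most. Library totals gave a median of 0.26 (all genes -0.09), 7 members at least 1.5-fold higher, and sums of 1.11 (I), 1.26 (II), 1.29 (III), 1.01 (IV) and 1.22 (V). Centring genes of at least 100 CPM on 1 gave a median of 0.20 (all genes -0.15), 4 members at least 1.5-fold higher, and sums of 1.06 (I), 1.20 (II), 1.23 (III), 0.963 (IV, reversed) and 1.17 (V). Deposited RPKM gave a median of 0.25 and 9 members at least 1.5-fold higher. Uniquely placed reads moved sums to 1.16 (I), 1.33 (III), 1.20 (IV) and 1.29 (V), and junction reads to 1.19 (I), 1.41 (III), 1.12 (IV) and 1.29 (V). Leaving out Cox6a2, chosen after seeing the data, moved complex IV to 1.20. DESeq2 size factors changed none of the 9 results beyond counting error or 1.5 times. Depth limits statements on Cox7a1, Ndufaf5, Atp5s and Ndufaf3, the compared members with the fewest reads.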
